A study of Homo sapiens with 6 samples.

Results

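Augmin is a protein complex of 8 subunits, encoded in human by HAUS1 to HAUS8, and NEDD1 is the adaptor through which it works with gamma-tubulin. The 9 genes were chosen by name from a table of 58735 genes, and all 9 were found in it once. Messenger RNA from RPE-1 cells was sequenced after SON, a splicing factor of nuclear speckles, had been knocked down. RPE-1 is an immortalised human retinal pigment epithelial line; this derivative carries CETN2 fused to GFP, which marks centrioles, and a PLK4 gene switched on by doxycycline. The siSON group (3 libraries) received an siRNA against SON and the siControl group (3 libraries) received a scramble siRNA. Both groups were given doxycycline at 1 µg/mL, so PLK4, the kinase at the start of centriole duplication, was under induction in the controls too, and no library without induction was analysed here. The comparison asked how the levels of these mRNAs differ when SON is depleted in cells that are driven to make extra centrioles.

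In a dividing cell, augmin binds along the side of an existing spindle microtubule and brings the gamma-tubulin ring complex to it, so that a new microtubule branches off. NEDD1 links the ring complex to augmin on the spindle and also anchors it at the centrosome. The subunits are usually described as forming a pair of subcomplexes. T-III, made of HAUS1, HAUS3, HAUS4 and HAUS5, forms most of the long coiled-coil stalk, and T-II, made of HAUS2, HAUS6, HAUS7 and HAUS8, holds the parts that contact microtubules and NEDD1.

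In siSON, 6 of the 9 mRNAs fell (HAUS2, HAUS3, HAUS4, HAUS5, HAUS8 and NEDD1), against 36.5% of all genes tested. HAUS6 rose, although its direction turned with scaling by library size alone, HAUS1 did not pass the test, and the scarce HAUS7 is described apart because it passed the count filter only through the siSON group. HAUS4 fell furthest, to 13.8% of its control level, followed by HAUS5 at 44.7% and HAUS3 at 56.0%. These 3 belong to T-III. HAUS6, the most abundant augmin mRNA by count, was at 113% of its control level (95% interval 102% to 125%), and HAUS7 was close to the limit of what the libraries could show. Within 1 complex the values ran from a loss of most of the HAUS4 mRNA to about the control level of HAUS6.

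The letters upstream of the genes are shown for the 3 mRNAs that fell most and for HAUS6, so that a member that fell can be read beside one that did not. Each stretch covers 250 bases before the RefSeq transcript start and 12 bases after it (GRCh38.p14), on the strand of the gene, 5′ to 3′. Capitals mark matches, on either strand, to the E2F-type letters GGCGGGAA, the GC box GGGCGG, the box CCAAT, the ETS-type letters CCGGAAG, the cyclic AMP response element TGACGTCA or the cell cycle homology region TTTGAA.
HAUS4, chr14:22957079-22957340, minus strand: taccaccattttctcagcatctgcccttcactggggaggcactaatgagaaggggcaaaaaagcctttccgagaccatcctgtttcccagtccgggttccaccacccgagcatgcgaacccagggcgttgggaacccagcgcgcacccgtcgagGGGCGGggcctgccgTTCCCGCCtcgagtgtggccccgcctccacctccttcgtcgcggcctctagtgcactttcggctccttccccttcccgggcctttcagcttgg
HAUS5, chr19:35612485-35612746, plus strand: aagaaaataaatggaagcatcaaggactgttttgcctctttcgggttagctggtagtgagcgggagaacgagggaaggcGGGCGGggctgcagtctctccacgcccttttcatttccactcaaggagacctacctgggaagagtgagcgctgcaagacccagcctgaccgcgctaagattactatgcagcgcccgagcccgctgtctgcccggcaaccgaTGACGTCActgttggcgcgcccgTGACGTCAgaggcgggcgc
HAUS3, chr4:2242110-2242371, minus strand: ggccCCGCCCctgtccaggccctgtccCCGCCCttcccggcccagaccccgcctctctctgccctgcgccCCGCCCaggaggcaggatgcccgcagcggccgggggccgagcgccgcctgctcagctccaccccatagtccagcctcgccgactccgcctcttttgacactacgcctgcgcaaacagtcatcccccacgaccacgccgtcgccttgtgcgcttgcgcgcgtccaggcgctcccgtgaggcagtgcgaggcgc
HAUS6, chr9:19102893-19103154, minus strand: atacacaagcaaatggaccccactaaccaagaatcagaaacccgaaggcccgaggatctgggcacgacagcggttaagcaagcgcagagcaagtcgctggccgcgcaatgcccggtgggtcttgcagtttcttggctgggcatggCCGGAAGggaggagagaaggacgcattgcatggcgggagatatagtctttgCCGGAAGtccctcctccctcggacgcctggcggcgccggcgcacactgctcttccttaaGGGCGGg
The stretches held different matches. HAUS4 had an E2F-type match that began 81 bases before the start and a GC box 96 bases before it. HAUS5 had a pair of matches to the cyclic AMP response element, which began 30 and 7 bases before the start. HAUS3 had GC boxes alone, and HAUS6 had a pair of ETS-type matches and a GC box just after the start.

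The RefSeq table held 12 windows of 300 bases (250 before and 50 after a start) for the 9 genes, with all 9 matched. The E2F-type letters are bound by factors that act at the entry into S phase. They were in 6 of the 12 windows, 1 each for HAUS1, HAUS2, HAUS4, HAUS7, HAUS8 and NEDD1, against 3.16% of 35116 windows of that length. The HAUS7 match was in the window chrX:153470527-153470826 and not in the window nearest the annotated HAUS7 start (chrX:153495416-153495715). The former window also holds the annotated start of TREX2 (chrX:153470587), a gene that overlaps HAUS7 on the same strand. Whether these letters bear on the changes was not tested. The GC box, the site of the Sp factors, was in all 12 windows of the 9 members, against 45.0% of windows. Its letters can overlap an E2F-type match. The cyclic AMP response element was found in 3 of the 12 windows (HAUS2, HAUS5 and NEDD1), against 1.85% of windows. The ETS-type letters were in 4 (HAUS6, HAUS8 and NEDD1), against 10.3%. CCAAT was found in 2 windows, both of HAUS7 (against 34.6%), and the cell cycle homology region in 1 window, of HAUS8 (against 15.2%). A match is a run of letters and not a measured binding site.

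The libraries held 54572365 to 69764836 counts, and 3 counts were worth 0.0402 to 0.0590 CPM (counts scaled to a common library size, with TMM factors), which covers counting error only. SON itself stood at 295, 313 and 284 CPM in siControl and at 68.0, 70.0 and 65.0 in siSON, 22.8% of the control level. The RPE-1 markers KRT8, KRT18, VIM and TERT were all above 1 CPM. Of 8 genes of the differentiated retinal pigment epithelium, TTR was at 0 in all libraries, RPE65 reached at most 0.258 CPM and 4 were above 1 CPM in at least 1 library, with a summed level of 51.1 to 52.9 CPM in siControl and 74.0 to 83.3 in siSON. The higher sum came from MITF, OTX2 and BEST1, while PMEL had a mean of 2.07 CPM in siControl and 0.201 in siSON. Of 8 markers of other cell types, CD3E and MYH7 were at 0 and 2 were above 1 CPM in at least 1 library. These were PTPRC (mean 1.44 CPM in siControl and 0.292 in siSON) and PECAM1 (1.14 and 0.520). The 8 summed to 2.42 to 3.35 CPM in siControl and 0.590 to 1.21 in siSON. The part of these markers in the results was not tested. Within each group, library pairs that included replicate 1 differed most.

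Changes were widespread: 71.7% of the 16591 genes tested were called changed at an adjusted p under 0.05 (edgeR's quasi-likelihood test, Benjamini-Hochberg over all genes tested), 35.2% higher and 36.5% lower. With library size alone 4441 genes were higher and 7351 lower, against 5834 and 6054 here. All 9 members passed the count filter. HAUS7 reached 10 counts in all 3 siSON libraries but in only 2 of the siControl libraries, so it depended on the group where it was higher to pass the filter. Of the other 8 members, 7 were called (87.5%), 6 lower and 1 higher, and with HAUS7 the count was 8 of 9. HAUS4 and HAUS5 were lower by at least 2-fold, as were 20.5% of all genes tested. No member other than HAUS7 was higher by at least 2-fold, against 8.72% of all genes tested. The groups did not overlap in CPM for any of the 9 members, which held for 75.1% of all genes tested. The median log2 fold change (siSON over siControl) was -0.34 over the 8 members without HAUS7 and -0.03 over all genes tested. Over all 9, scaling by library size alone gave 7 lower and 1 higher, and cyclic loess gave 5 lower and 1 higher, the higher member being HAUS7 both times.

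**Figure D1:**
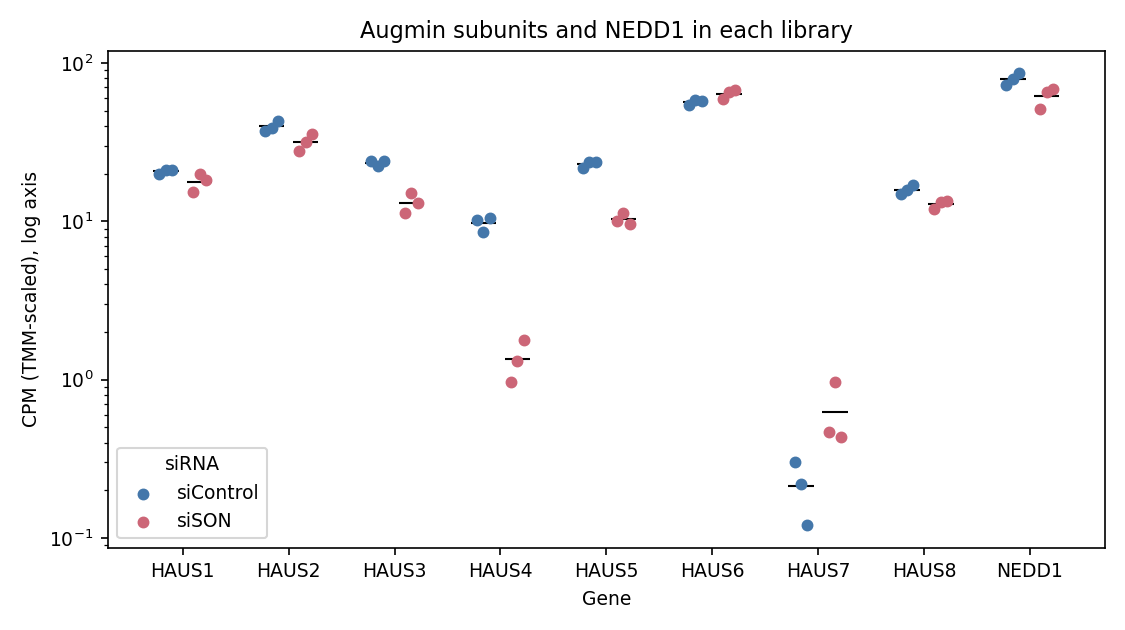
CPM (TMM-scaled, log axis) of the 9 genes in each of the 3 siControl and 3 siSON libraries; points are libraries and bars are group means. HAUS4 lies between 0.965 and 1.77 CPM in siSON against 8.54 to 10.5 in siControl, and for every gene the points of the groups are apart.

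Among the T-III subunits, HAUS4 had the largest change. HAUS4 (ENSG00000092036) lies at chr14:22946228-22957161 (GRCh38) on the minus strand, and its reference transcript has 10 exons. Its counts were 713, 543 and 787 in siControl and 56, 68 and 90 in siSON. In CPM these were 10.2, 8.54 and 10.5 against 0.965, 1.32 and 1.77. The highest siSON library was well below the lowest siControl library. The mean fell from 9.76 ± 1.07 to 1.35 ± 0.404 CPM (n = 3 libraries per group, SD), or -2.86 on the log2 scale with SE 0.19 and adjusted p = 1.53e-07. The 95% interval was 10.3% to 18.4% of control. In bulk RNA, fewer cells with the transcript and less of it per cell cannot be told apart.

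HAUS5, a coiled-coil subunit of the stalk, lies at chr19:35612744-35625349 on the plus strand (ENSG00000249115, 19 exons). Its level was 21.8, 23.8 and 23.6 CPM in siControl and 9.99, 11.3 and 9.56 CPM in siSON. Both groups were tight, with a gap between them about as wide as the siSON level itself. The mean fell from 23.0 ± 1.10 to 10.3 ± 0.908 CPM (n = 3 libraries per group, SD), or -1.16 on the log2 scale with SE 0.09 and adjusted p = 4.62e-07.

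HAUS3, the partner of HAUS5 along the stalk, lies at chr4:2227464-2242164 on the minus strand (ENSG00000214367, 5 exons). It stood at 24.0, 22.3 and 24.0 CPM in siControl and at 11.3, 15.03 and 13.1 CPM in siSON. All siSON libraries were lower, and they spread more than the controls did. The mean fell from 23.4 ± 1.01 to 13.1 ± 1.89 CPM (n = 3 libraries per group, SD), or -0.84 on the log2 scale with SE 0.10 and adjusted p = 2.27e-05.

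HAUS1, the remaining T-III subunit, lies at chr18:46104332-46128333 on the plus strand (ENSG00000152240, 9 exons). It had 19.9, 21.1 and 21.0 CPM in siControl and 15.3, 19.8 and 18.3 CPM in siSON. The groups were apart by little: siSON replicate 2 was just under siControl replicate 1. The means were 20.6 ± 0.675 and 17.8 ± 2.30 CPM (SD, n = 3 each), and the log2 difference of -0.21 (SE 0.10 and adjusted p = 0.0699) had a 95% interval from -0.43 to just above 0. Without siSON replicate 2, HAUS1 passed the test at -0.28 (adjusted p = 0.0324), and without siSON replicate 1 it was -0.10 (adjusted p = 0.279).

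**Figure D2:**
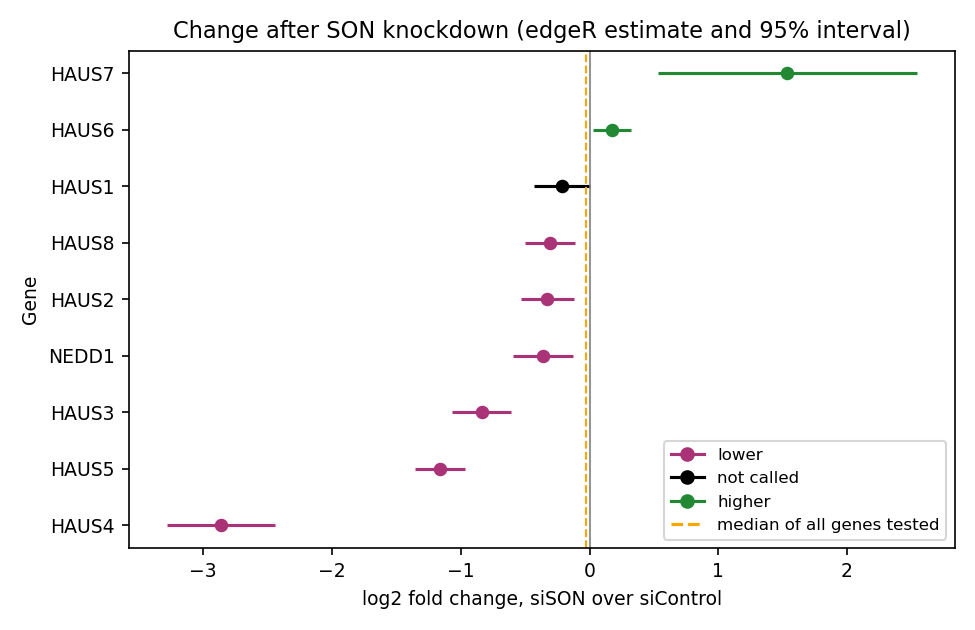
Log2 fold change (siSON over siControl) of each gene with its 95% interval from edgeR, ordered by size; colour gives the call and the dashed line the median of all genes tested. HAUS4, HAUS5 and HAUS3 lie lowest, and HAUS7 is highest with the widest interval.

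In T-II, HAUS2 and HAUS8 fell by less than 2-fold and HAUS6 was slightly higher. HAUS6, the subunit known to bind NEDD1, lies at chr9:19053143-19103119 on the minus strand (ENSG00000147874, 17 exons). It had 54.3, 58.7 and 57.1 CPM in siControl and 59.3, 65.1 and 67.7 CPM in siSON. The lowest siSON library was only just above the highest control. HAUS6 rose from 56.7 ± 2.27 to 64.0 ± 4.29 CPM (n = 3 libraries per group, SD), or 0.17 on the log2 scale with SE 0.07 and adjusted p = 0.0334. The value turned to -0.02 (adjusted p = 0.787) when libraries were scaled by size alone. Leaving out any of 5 of the 6 libraries (each except siSON replicate 1) ended the call, with adjusted p between 0.0752 and 0.164.

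HAUS2, a small coiled-coil subunit, lies at chr15:42548810-42569994 on the plus strand (ENSG00000137814, 6 exons). It had 37.3, 38.9 and 43.2 CPM in siControl and 28.0, 31.8 and 35.4 CPM in siSON. It fell from 39.8 ± 3.04 to 31.7 ± 3.72 CPM (n = 3 libraries per group, SD), or -0.33 on the log2 scale with SE 0.09 and adjusted p = 0.00799. The difference between the means was a little larger than the range within either group.

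HAUS8, which carries a microtubule-binding region, lies at chr19:17049729-17075625 on the minus strand (ENSG00000131351, 11 exons). Its levels were 14.9, 15.7 and 16.9 CPM in siControl and 11.9, 13.3 and 13.4 CPM in siSON. It fell from 15.9 ± 1.02 to 12.8 ± 0.832 CPM (n = 3 libraries per group, SD), or -0.31 on the log2 scale with SE 0.09 and adjusted p = 0.00906. With cyclic loess scaling the fall was -0.17 and no longer passed (adjusted p = 0.0982).

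HAUS7, known to bind the deubiquitinase UCHL5, lies at chrX:153447666-153495516 on the minus strand (ENSG00000213397, 10 exons). It had 21, 14 and 9 counts in siControl and 27, 50 and 22 in siSON. In CPM these were 0.301, 0.220 and 0.121 against 0.465, 0.970 and 0.433, so siSON replicate 2 stood well above the other siSON libraries. The fitted log2 difference was 1.54 (SE 0.46, adjusted p = 0.0105), with a wide 95% interval of 0.53 to 2.55. Because the siSON group carried the gene through the count filter, this p is no independent support. In the fit with no such filter the value was also 1.54 (adjusted p = 0.00119). That fit gave a far smaller adjusted p for HAUS4 too (5.87e-72), so its p for HAUS7 adds no support. Without siSON replicate 2 it was 1.08 and did not pass (adjusted p = 0.0705). Of its exon bases, 35.6% are shared on the same strand with TREX2, an exonuclease gene, so its few counts are uncertain.

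NEDD1, the gamma-tubulin adaptor, lies at chr12:96907223-96953777 on the plus strand (ENSG00000139350, 16 exons). It had 72.6, 79.6 and 85.9 CPM in siControl and 51.2, 65.6 and 68.5 CPM in siSON. The low siSON value came from replicate 1, and the other siSON libraries were also under every control. NEDD1 fell from 79.4 ± 6.64 to 61.8 ± 9.26 CPM (n = 3 libraries per group, SD), or -0.36 on the log2 scale with SE 0.10 and adjusted p = 0.00941. Without siSON replicate 1 the fall was -0.23 and still passed (adjusted p = 0.0121).

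Counts of 1 member over another in the same library do not depend on how libraries are scaled. HAUS6 was taken as the denominator because it had the most counts among the subunits, a choice made after its values were seen. The log2 ratio of HAUS4 to HAUS6 was -2.41, -2.78 and -2.44 in siControl and -5.94, -5.63 and -5.26 in siSON, a difference of -3.06. The difference was -1.34 for HAUS5, -1.02 for HAUS3, -0.54 for NEDD1, -0.50 for HAUS2, -0.48 for HAUS8 and -0.39 for HAUS1, and it was 1.36 for HAUS7. For single genes, the groups did not overlap in CPM for 75.1% of all genes tested, and no such share was computed for ratios. In all 8 ratios the groups did not overlap, but the ratios share HAUS6 as denominator and are not separate results. HAUS6 itself was higher in siSON with TMM scaling (log2 fold change 0.175), which moves every ratio down together. A 2-sided exact permutation test gave p = 0.1 for each (0.1 after adjustment over the 8), which is the smallest p that 3 libraries against 3 allow.

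To compare levels between genes, CPM was divided by the kilobases of exon of each gene. On this length-scaled measure, NEDD1 was the highest in siControl at 17.8 ± 1.49 (SD, n = 3), above all subunits. HAUS1 (9.53 ± 0.312) and HAUS2 (9.20 ± 0.702) came next and did not differ beyond their spread on this length. HAUS6 followed at 7.15 ± 0.286, HAUS5 at 4.54 ± 0.217, HAUS4 at 3.85 ± 0.422, HAUS3 at 3.32 ± 0.143, HAUS8 at 2.87 ± 0.184 and HAUS7 at 0.0539 ± 0.0228. The spreads of HAUS4 and HAUS3 touched, while on this length HAUS5 in its lowest library was above HAUS4 in its highest. In siSON the order was NEDD1 (13.9 ± 2.08), HAUS1 (8.22 ± 1.06), HAUS6 (8.07 ± 0.541), HAUS2 (7.34 ± 0.862), HAUS8 (2.32 ± 0.150), HAUS5 (2.03 ± 0.179), HAUS3 (1.86 ± 0.267), HAUS4 (0.532 ± 0.159) and HAUS7 (0.157 ± 0.0758). HAUS1, HAUS6 and HAUS2 were then within each other's spread. The mean of HAUS8 had moved from below HAUS5, HAUS4 and HAUS3 to above them, although its spread touched that of HAUS5, and the spreads of HAUS5 and HAUS3 overlapped. The order depends on the length used, and the exon lengths of HAUS3, HAUS4 and HAUS7 include bases shared with other genes on the same strand. Per kilobase of the longest transcript, HAUS1 was at 18.3 ± 0.600 in siControl, well above HAUS2 at 10.1 ± 0.769, and the lowest after HAUS7 was HAUS3 at 4.17 ± 0.180, with HAUS8 at 5.00 ± 0.321. On that length, HAUS4 (5.95 ± 0.652) had a higher mean than HAUS5 (5.16 ± 0.247) in siControl, and their spreads touched. In siSON, HAUS4 stayed the lowest after HAUS7 at 0.823 ± 0.246.

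Summed over the 8 subunits, the length-scaled level was 39.1, 40.2 and 42.2 in siControl and 27.2, 32.2 and 32.1 in siSON, 75.4% of the control mean. The size of the fall depended on scaling: with library size alone the sums were 43.3 in siControl and 28.5 in siSON, further apart. The make-up of that sum also differed between the groups. HAUS4 made up 9.50% ± 1.01 of it in siControl and 1.73% ± 0.399 in siSON, and HAUS5 made up 11.2% ± 0.375 and 6.67% ± 0.720 (SD, n = 3 each). The share of HAUS6 went from 17.7% ± 0.674 to 26.5% ± 0.995, a larger share of a smaller sum. Leaving out the scarce HAUS7, the highest subunit was 3.36 ± 0.0883 times the lowest in siControl and 16.5 ± 3.84 times in siSON, with HAUS8 the lowest in each control and HAUS4 the lowest in each siSON library. Per longest transcript the ratios were 4.40 ± 0.299 and 20.0 ± 4.33, with HAUS3 the lowest in each control. No test was made of these sums, since they are a score over chosen genes.

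The subcomplexes contributed unequally to the lower sum. T-III summed to 20.9, 20.9 and 21.9 in siControl and to 11.0, 14.0 and 12.9 in siSON, 59.5% of the control mean. T-II summed to 18.2, 19.3 and 20.3 in siControl and to 16.2, 18.2 and 19.3 in siSON, 92.8% of the control mean, and its groups overlapped. Both percentages of control are from TMM-scaled levels and depend on the scaling, as the augmin sum does. T-III therefore made up 52.4% ± 0.825 of the augmin sum in siControl and 41.4% ± 1.88 in siSON (SD, n = 3 each). By counts of calls, T-III had 3 lower and 0 higher of 4, and T-II had 2 lower and 2 higher of 4, where all genes tested had 36.5% lower and 35.2% higher. The higher pair is HAUS6, which turned with library size alone, and HAUS7, which has few counts. With the longest transcript as the length, the T-III share was 58.5% ± 0.756 in siControl and 48.9% ± 1.83 in siSON. These are mRNA levels and say nothing of how much of the assembled complex was present.

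**Figure D3:**
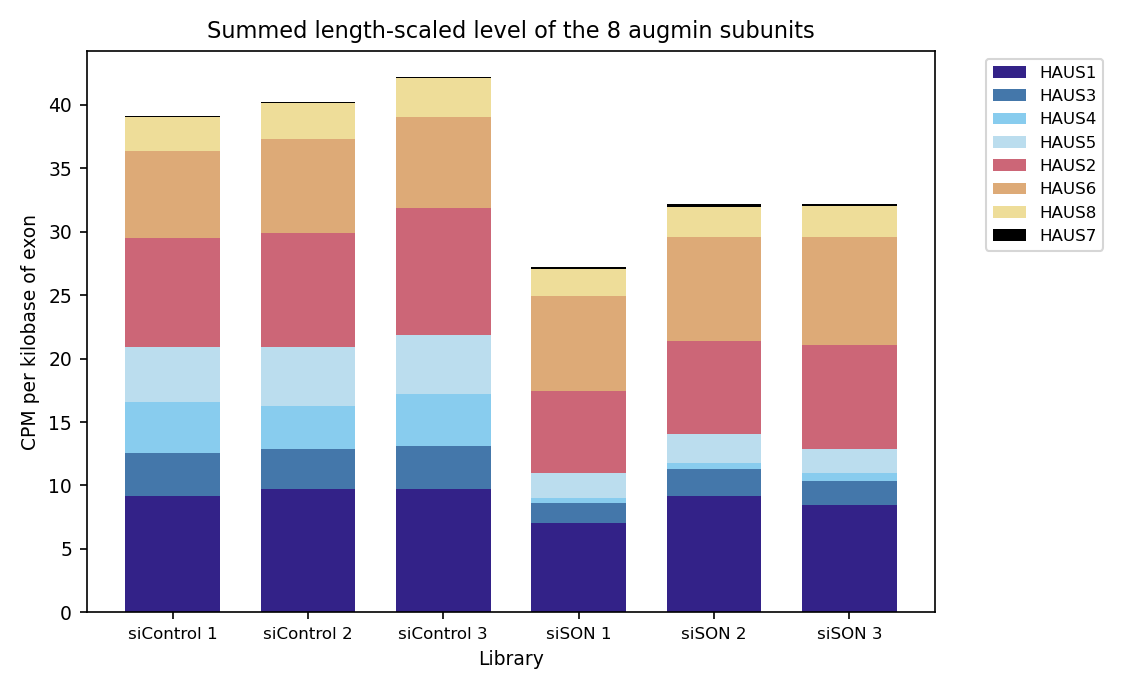
Stacked length-scaled level (CPM per kilobase of exon) of the 8 augmin genes in each library, T-III subunits (HAUS1, HAUS3, HAUS4, HAUS5) at the base and T-II subunits above. The stacks are 39.1 to 42.2 high in siControl and 27.2 to 32.2 in siSON, and the HAUS4 band almost vanishes in siSON.

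Augmin acts in mitosis, so markers of G2 and mitosis are given beside these values. Of 20 such genes, 11 passed the test (55.0%, against 71.7% of all genes tested), 6 higher and 5 lower, with a median log2 fold change of -0.05. KIF20A, a kinesin of the central spindle, fell from 115 ± 9.18 to 57.1 ± 9.97 CPM (log2 fold change -1.01, adjusted p = 2.60e-05). BIRC5, the survivin subunit of the chromosomal passenger complex, rose from 123 ± 5.27 to 178 ± 21.7 CPM (0.54, adjusted p = 1.11e-04). The split depended on scaling: library size alone gave 2 higher and 9 lower, and cyclic loess gave 3 higher and 10 lower.

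The 20 markers summed to 2853, 3052 and 3042 CPM in siControl and 2346, 2981 and 3092 in siSON, so siSON replicate 1 was low and the other siSON libraries lay within or above the control range. The 8 augmin genes amounted to 6.40%, 6.20% and 6.46% of that sum in siControl and to 5.85%, 5.32% and 5.16% in siSON, without overlap. HAUS1, HAUS2, HAUS3, HAUS4, HAUS6, HAUS8 and NEDD1 were also at the lowest level of their group in siSON replicate 1; the part of the mitotic markers in the results was not tested.

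HAUS4 and HAUS5, which fell most, had the shortest median introns of the members. The median intron of the reference transcript was 172.5 bases in HAUS5 and 638 bases in HAUS4, and between 1188 and 2575.5 bases in the other 7 genes. In HAUS5, 10 of 18 introns were under 200 bases, the shortest 71, and in HAUS4 2 of 9 were, the shortest 81. HAUS7 had 1 of 9 and HAUS8 1 of 10, and the other 5 genes had none. HAUS3, which also fell, had 4 introns of at least 957 bases. The annotation lists retained-intron transcripts for HAUS5 (4), HAUS8 (3), HAUS4 (2) and HAUS1 (2), but counts per gene cannot tell which introns were kept.

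Over all 12695 protein-coding genes with introns that were tested, lower levels went with short introns. Whether intron length had a part in the change of any member was not tested. In the quintile with the shortest median intron (74.5 to 620 bases), which held HAUS5, the median log2 fold change was -0.62 and 40.2% were lower by at least 2-fold. In the second quintile (621 to 1439 bases), which held HAUS4 and HAUS7, the median was -0.02 and 19.9% were lower by at least 2-fold, so HAUS4 at -2.86 lay far under its quintile's median. The middle quintile, with HAUS1, HAUS2, HAUS3, HAUS6 and NEDD1, had a median of 0.16, and HAUS6 at 0.17 was the only 1 of its 5 members not below that median. HAUS8 was in the fourth quintile (median 0.20, 10.2%). Among genes with over 50% of introns under 200 bases, as in HAUS5, the median was -0.91 and 46.7% of 593 genes were lower by at least 2-fold, against 13.2% of 6980 genes with no such intron. As a description, Spearman's rank correlation between median intron length and log2 fold change was 0.25 over these genes and 0.38 over the 9 members, which share their libraries. For transcript GC content the correlation was -0.21 over these genes and 0.18 over the members. Both member correlations include HAUS7, which had few counts and passed the count filter only through the siSON group. HAUS7 had the highest GC content (60.1%) and the largest rise of the members. Neither correlation was computed without it, so no reading is drawn from their sign or size. In the quintile with the highest GC, which held HAUS7, 39.3% of genes were lower by at least 2-fold, and HAUS4 lay in the middle GC quintile, with 11.1%.

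**Figure D4:**
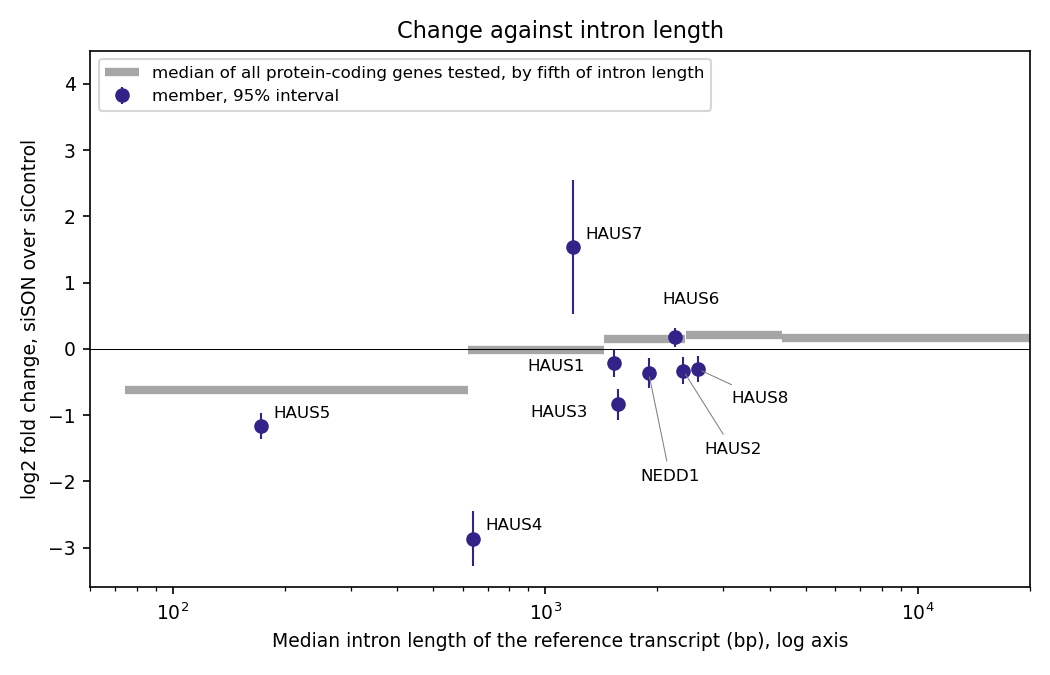
Log2 fold change (siSON over siControl) of each gene with its 95% interval against the median intron length of its reference transcript (log axis); grey bars are the medians of all protein-coding genes tested in quintiles of intron length. HAUS5 sits below the lowest grey bar at 172.5 bases, and HAUS4 lies furthest from the bar of its quintile.

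Some members share bases or a start region with another gene, which bears on what their counts can show. Of 19 such neighbours, 7 passed the count filter and 8 had no count in any library. A further 8 pseudogenes carry a member's name, and none had over 9 counts in a library. HAUS4 shares 34.1% of its exon bases on the same strand, mostly with the readthrough gene AL132780.3, which had 0 counts in all libraries. How shared reads were handled is not given, so these 0 counts do not show that the HAUS4 counts were unaffected. AL132780.1, which lies antisense to HAUS4, had 12 to 36 counts in siControl and 15 to 23 in siSON (log2 fold change 0.04, adjusted p = 0.943). Its counts were below those of HAUS4 in every library, and its direction turned with scaling by library size alone (-0.16).

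HAUS3 and POLN, a DNA polymerase gene, share a start region and 9.71% of the exon bases of HAUS3 on the same strand. POLN had 4.29, 3.56 and 3.07 CPM in siControl and 5.81, 4.56 and 3.44 CPM in siSON, with overlapping groups (log2 fold change 0.34, adjusted p = 0.136). POLN passed the test with cyclic loess (0.66, adjusted p = 0.0103) and without siSON replicate 3 (0.53, adjusted p = 0.0243), and was 0.15 without siSON replicate 1. The log2 ratio of HAUS3 to POLN counts was 2.49, 2.65 and 2.97 in siControl and 0.95, 1.72 and 1.93 in siSON. Relative to the gene it overlaps, HAUS3 was lower in every siSON library than in any control.

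HAUS8 and MYO9B, a myosin gene, start 156 bases apart on opposite strands. MYO9B (chr19:17075781-17214537) had 202, 207 and 206 CPM in siControl and 47.7, 63.1 and 54.6 in siSON. It fell from 205 ± 2.73 to 55.1 ± 7.73 CPM (log2 fold change -1.90, SE 0.09, adjusted p = 1.39e-08). The fall of HAUS8 next to it was -0.31, and the log2 ratio of HAUS8 to MYO9B counts was higher by 1.598 in siSON.

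HAUS1 and ATP5F1A, a subunit of mitochondrial ATP synthase, start 2 bases apart on opposite strands. ATP5F1A had 326, 319 and 337 CPM in siControl and 377, 368 and 373 CPM in siSON, a rise of 0.19 on the log2 scale (adjusted p = 0.00333) that turned with library size alone (-0.01) and with cyclic loess (-0.18, adjusted p = 0.00297). HAUS2 and LRRC57 start 8 bases apart on opposite strands. LRRC57 had 13.7, 11.95 and 13.2 CPM in siControl and 12.04, 14.8 and 15.8 in siSON (log2 fold change 0.14, adjusted p = 0.291). It was -0.06 with library size alone, and passed the test with cyclic loess (0.27, adjusted p = 0.0428) and without siSON replicate 1 (0.26, adjusted p = 0.027). The log2 count ratio, siSON minus siControl, was -0.41 for HAUS1 to ATP5F1A and -0.46 for HAUS2 to LRRC57.

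HAUS7 and TREX2 were both higher in siSON. TREX2 had 20, 20 and 12 counts in siControl and 46, 31 and 50 in siSON (log2 fold change 1.64, SE 0.36, adjusted p = 0.00176). Added together, the genes had 41, 34 and 21 counts in siControl and 73, 81 and 72 in siSON, and the siSON sums were closer to each other than those of HAUS7 alone. BGN, the gene of the matrix proteoglycan biglycan, overlaps the far 5′ end of annotated HAUS7 on the opposite strand. It had 45, 68 and 96 counts in siControl and 7, 10 and 2 in siSON (log2 fold change -3.06, SE 0.47, adjusted p = 1.24e-04). BGN passed the count filter only through the siControl group, where it was higher, so this p is no independent support. Over the 7 member and neighbour pairs, the count ratios did not overlap between groups in 6 (2-sided exact permutation p = 0.1, 0.117 after adjustment over the 7, the smallest p this design allows being 0.1), and overlapped for HAUS7 to TREX2 (p = 0.8). For single genes, the groups did not overlap in CPM for 75.1% of all genes tested.

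**Figure D5:**
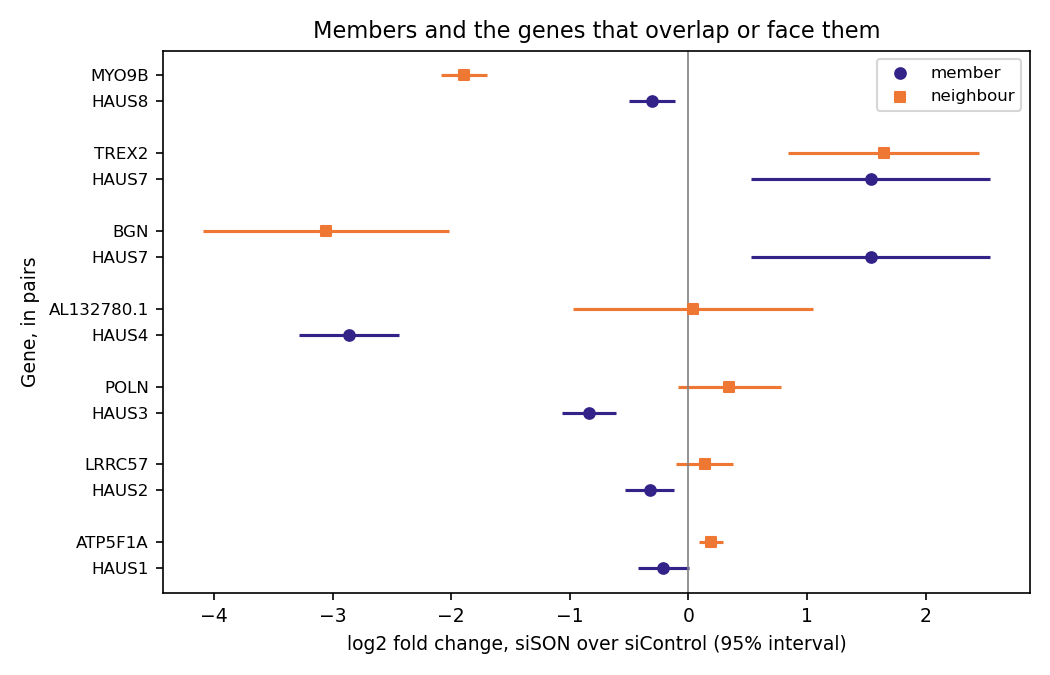
Log2 fold change (siSON over siControl) with 95% interval for each member (circles) beside the tested gene that overlaps it or starts near it (squares), in 7 pairs. HAUS8 and MYO9B are both lower but far apart, HAUS7 lies with TREX2 and away from BGN, and HAUS3 and HAUS4 lie below their neighbours.

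The gamma-tubulin ring complex is the nucleator that augmin and NEDD1 bring to the spindle. Of its 10 genes, 8 passed the test (80.0%, against 71.7% of all genes tested), 6 lower and 2 higher, with a median log2 fold change of -0.42. TUBG1, the main gamma-tubulin gene, had 116, 124 and 132 CPM in siControl and 8.58, 10.9 and 9.97 CPM in siSON. It fell to 7.91% of control (log2 fold change -3.66, SE 0.09, adjusted p = 6.06e-10), below the value of every augmin gene, although the difference from HAUS4 was not tested. TUBGCP2, a core subunit of the ring, fell from 120 ± 2.67 to 34.4 ± 1.90 CPM (log2 fold change -1.80, SE 0.06, adjusted p = 1.99e-09).

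The list of partners held 29 kinases, recruiters and other spindle or centrosome proteins, and 22 passed the test (75.9%, against 71.7% of all genes tested), 11 higher and 11 lower, with a median log2 fold change of 0.05. With library size alone the split was 6 higher and 14 lower (median -0.15), and cyclic loess gave 5 higher and 16 lower (median -0.26). PCNT, the pericentriolar scaffold pericentrin, fell from 98.3 ± 1.31 to 26.4 ± 2.24 CPM (log2 fold change -1.90, adjusted p = 3.31e-09). NEK7, a mitotic kinase activated through NEK9, fell from 80.2 ± 1.85 to 23.6 ± 1.93 CPM (-1.77, adjusted p = 5.01e-09). LGALS3BP, a secreted glycoprotein also reported at centrosomes, fell from 131 ± 4.87 to 64.7 ± 0.553 CPM (-1.01, adjusted p = 2.64e-08). RCC1, which charges Ran with GTP near chromatin, rose from 45.9 ± 2.41 to 133 ± 15.3 CPM (1.53, adjusted p = 3.16e-08).

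The partners are also counted by role, in small groupings made after their values were seen. Over all genes tested, 35.2% were higher and 36.5% lower, and the difference of any grouping from these shares was not tested. Of 6 kinases (AURKA, PLK1, CDK1, NEK6, NEK7 and NEK9), 3 were higher and 2 lower. Of 7 centrosomal scaffold and recruiter genes (CEP192, CEP63, CEP57, CDK5RAP2, PCNT, AKAP9 and LGALS3BP), 2 were higher and 4 lower. Of 5 genes of the Ran pathway, which releases spindle factors near chromatin (RAN, RCC1, KPNA2, KPNB1 and TPX2), 3 were higher and 0 lower. Of 11 motors and microtubule-associated proteins (HMMR, CKAP5, TACC3, CLTC, NUMA1, KIF11, KIF15, KIFC1, DLGAP5, PRC1 and EML3), 3 were higher and 5 lower. With cyclic loess these counts became 1 higher and 2 lower, 1 and 5, 3 and 2, and 0 and 7, in the same order. With library size alone they became 1 and 2, 1 and 5, 3 and 1, and 1 and 6.

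The genes whose pattern over the 6 libraries was closest to that of HAUS4 were NANOS1, LINC01537 and NES. Likeness was the root mean square difference of log2 CPM after centring each gene on its mean, which was 0.13, 0.13 and 0.15 for the 3 genes. NANOS1 went from 14.0 to 2.12 CPM and NES from 10.5 to 1.41 CPM. The closest to HAUS7 were the low-count genes AP002387.1 (0.20), AC004918.3 (0.26) and AL360181.2 (0.26), with mean levels of 0.147 to 1.00 CPM in siControl and 0.370 to 2.56 CPM in siSON.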

How the data were processed

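Libraries were prepared from total RNA with a Nugen mRNA kit, per the labels' protocols. The authors deposited raw read counts per gene with 1 column per library and no pooling. Per the submitters' processing notes, cutadapt 1.16, STAR 2.5.2a, featureCounts 1.6.2, DESeq2 1.28.1 and the build hg38 were used. Which annotation and strand setting were used, and how reads shared by several genes were handled, is not given in the sources used here, so counts of overlapping genes are uncertain. All 58735 gene identifiers matched GENCODE release 29, from which positions, exons and introns were taken; promoter letters came from RefSeq.

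Genes were kept with filterByExpr (minimum count 10), scaled by TMM and compared with edgeR 4.0.16's robust quasi-likelihood test in R 4.3.3, with group as the only term and all 6 libraries. P-values were adjusted by Benjamini-Hochberg over the 16591 genes tested, with a threshold of 0.05. The standard error is the absolute log2 fold change over the square root of F. The script was tested on simulated data. Nothing states that the replicates came from separate cultures, so p-values measure only the spread between these samples, which may be technical.

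The members and gene lists were chosen with earlier results of these data known. 1 marker gene is not reported here. The genes named are SON, the 9 members, the top genes of each list by adjusted p (2 gamma-tubulin ring genes, 4 partners, 2 mitotic markers), tested genes that overlap a member or start within 1000 bases of it on the other strand, and the 3 genes closest in pattern to the members with the largest rise and fall. Partners named by role were chosen after their values were seen. Alternatives were DESeq2 1.42.0, limma-voom and cyclic loess (limma 3.58.1), RLE factors, library size alone, no filter, a mean count of at least 50, a replicate block, each library left out and, chosen after seeing the data, both replicate 1 libraries left out. Length-scaled levels were also computed with the longest transcript.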

Additional observations from a re-analysis of the deposited data

How the results depend on the processing

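HAUS2, HAUS3, HAUS4, HAUS5 and NEDD1 kept their direction and passed the test in all 15 alternatives, with log2 fold changes of -3.09 to -2.51 for HAUS4, -1.36 to -1.05 for HAUS5, -1.03 to -0.72 for HAUS3, -0.52 to -0.23 for HAUS2 and -0.56 to -0.23 for NEDD1. HAUS8 ran from -0.50 to -0.17 and HAUS7 from 1.08 to 2.03, each losing its call once as given above. The median log2 fold change of all genes, -0.03, was -0.22 with library size alone and 0.04 with cyclic loess. With library size alone HAUS6 turned to -0.0221, ATP5F1A to -0.0107, LRRC57 to -0.0607 and AL132780.1 to -0.1584, and with cyclic loess ATP5F1A turned to -0.1783. AL132780.1, with 12 to 36 counts per library, ran from -0.3196 to 0.5761 with a library left out, negative without siControl replicate 1 (-0.0619), siControl replicate 3 or siSON replicate 1 (-0.0574), and was -0.1687 without replicate 1 of both groups. The number of members called higher, 2 of 9, was 1 with library size alone or cyclic loess, 0 with a mean count of at least 50, where HAUS7 was not tested, and 0 to 2 with a library left out; the cause was not tested. HAUS6 was also not called with cyclic loess (0.0056, adjusted p = 0.94). HAUS1 passed with library size alone (-0.41, adjusted p = 0.00434) and a mean count of at least 50 (-0.27, adjusted p = 0.0261). The summed augmin level of 40.5 in siControl was 57.5 with the longest transcript and 43.3 with library size alone. The siSON sum of 30.5 was 43.5 with the longest transcript and 28.5 with library size alone, so that scaling set the groups further apart.

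Libraries with the same replicate number correlated in their deviations from the group means by 0.194, 0.0461 and 0.118, and each library correlated best with its own number. The column names also give libraries of the same replicate number neighbouring S numbers, the meaning of which is not stated. These are hints of pairing, but no label states it, and the numbers were not taken to pair the libraries. With a replicate block, 9 members were called (HAUS1 at -0.22, adjusted p = 0.0237), and POLN passed (0.33, adjusted p = 0.0334), with 12313 genes called in all. Without replicate 1 of both groups, 8 members and 11806 genes were called, and LRRC57 passed (0.26, adjusted p = 0.0194). Depth limits HAUS7, with 9 to 50 counts per library.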
